A study of Homo sapiens with 16 samples.

Results

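Among the cohesin sites of the Ewing sarcoma line TC-32, 10320 were listed in that line alone and lay outside acetylated chromatin. They were chosen from 32720 distinct SMC1 intervals on chromosomes 1 to 22 and X. An interval was kept when it shared no base with any SMC1 interval of the second line, TC-71, and none with any H3K27ac domain of TC-32. These TC-32-only unacetylated sites made up 31.5% of the TC-32 SMC1 list (exact Clopper-Pearson 95% interval 31.04 to 32.05%). With the TC-32 lists cut to the length of the TC-71 lists, the share was 20.8%. The rest of the list comprised 5940 TC-32-only sites inside TC-32 acetylation, 13928 unacetylated sites shared with TC-71 and 2532 shared sites inside TC-32 acetylation. In the list as a whole, 50.3% of intervals overlapped a TC-71 SMC1 interval and 25.9% a TC-32 H3K27ac domain, the 2 conditions by which the sites were chosen.

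TC-32 and TC-71 are established cell lines of Ewing sarcoma, a tumour of bone and soft tissue. The labels tie TC-32 to diagnosis and TC-71 to the time after chemotherapy, and name no treatment of the cultured cells. Chromatin from each line was immunoprecipitated with antibodies against SMC1, H3K27ac or BORIS, or kept as input, with 2 samples each and 16 samples in all. For each line and antibody the labels of both samples name a single peak list, called against input of the same line, and do not say whether the samples were separate cultures. No value therefore has a replicate error, and no test between the lines was possible. The TC-71 SMC1 list was shorter, with 32720 intervals for TC-32 against 18264 for TC-71, and so was its H3K27ac list, with 36355 domains for TC-32 against 26334 for TC-71. Absence from a TC-71 list says only that no interval was called there. Intervals given with shares and medians cover counting error only, and the read depth is unknown from these lists.

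SMC1 is a core subunit of cohesin, the ring complex that holds sister chromatids together and extrudes loops of chromatin. Extruding cohesin is halted where the insulator protein CTCF is bound, so that most strong cohesin sites of human cells coincide with CTCF sites. A smaller group of cohesin sites lies at active enhancers and promoters, which carry H3K27ac. Cohesin outside acetylated chromatin is therefore usually thought of as architectural, at loop anchors and domain boundaries. CTCF itself was not among the antibodies here. No genome of the files' build was available to read the sequence under the intervals, and no gene was assigned to a site, so genes are named with a band only as textbook background.

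The TC-32-only unacetylated sites were short, mostly weak peaks. Their median width was 197 bp, against 260 bp for shared unacetylated sites. From the lowest to the highest quartile of peak-caller confidence (−log10 q), their medians were 166, 190, 233 and 274 bp. Those of shared unacetylated sites were 167, 197, 241 and 305 bp, so at like rank the difference was smaller. Widths of the TC-32-only unacetylated sites ran from 138 to 763 bp, and 165 of the 10320 (1.60%) were listed with more than 1 summit. Several summits were also rare among shared unacetylated sites (1.01%), and were more frequent in acetylated chromatin, at 12.8% of TC-32-only and 11.1% of shared sites there. The sites covered 2184 kb in all.

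The authors' fold enrichment over input had a median of 5.56 at TC-32-only unacetylated sites (10th to 90th percentile 3.65 to 9.47), against 8.85 (4.92 to 16.04) at shared unacetylated sites. The median −log10 q, the peak caller's measure of confidence by which ranks are given here, was 11.1 and 32.3 for the same classes. Both values come from the list that chose the sites and are given as a description. On a scale where 100 is the strongest interval, the median rank percentile was 34.5 (34.01 to 35.3) for TC-32-only unacetylated sites. It was 72.1 for shared unacetylated sites, and 18.4 for TC-32-only sites inside acetylation. Sites listed in TC-32 alone were thus stronger outside acetylated chromatin than inside it.

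**Figure D1:**
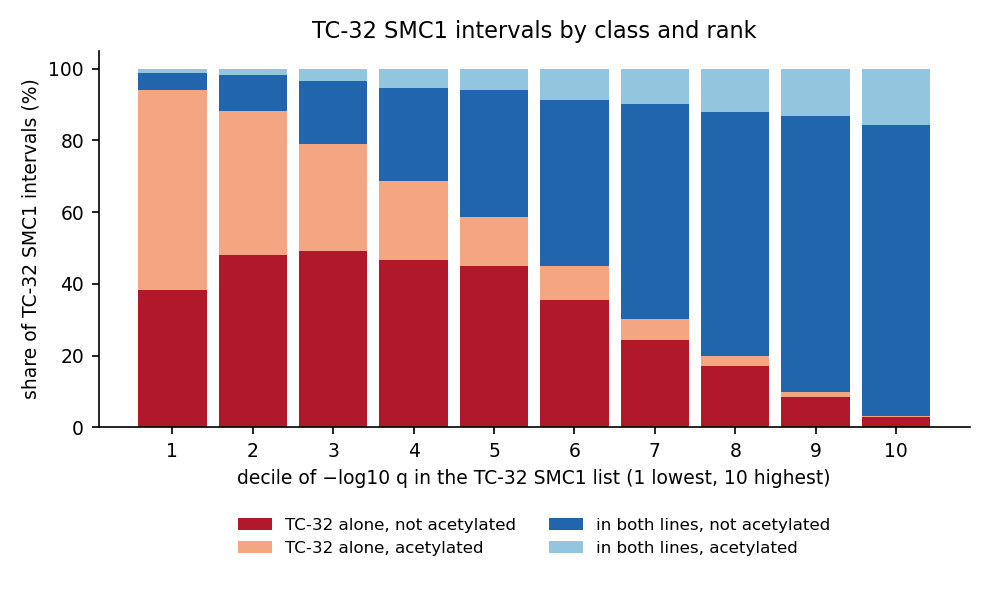
Share of TC-32 SMC1 intervals in each of 4 classes (%, stacked bars) by decile of −log10 q within the list. Sites listed in TC-32 alone and not acetylated take 38.3% of the lowest decile, 49.2% of the third and 2.75% of the highest.

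Across the ranks the share of these sites did not fall evenly. It was 38.3% in the lowest decile, where TC-32-only acetylated sites were the largest class at 55.8%. From the second to the fifth decile, TC-32-only unacetylated sites were the most numerous of the 4 classes, with 48.04%, 49.2%, 46.7% and 45.1%. Shared unacetylated sites led from the sixth decile on, where TC-32-only unacetylated sites held 35.6%, 24.3%, 17.1%, 8.40% and 2.75%. By quartile, 3608 of the sites lay in the lowest, 3827 in the second, 2292 in the third and 593 in the highest.

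Few of them stood near the top of the list. None (0) of the 100 highest SMC1 intervals of TC-32 belonged to the class, 8 of the highest 1000 did, and 202 of the highest 5000 (4.04%). Of all 16260 intervals that TC-71 lacked, 63.5% (62.7 to 64.2%) were of the class and the rest lay inside TC-32 acetylation. Among the highest 1000 the class held 8 of the 11 such intervals (72.7%, 39.03 to 94.0%), and among the highest 5000 it held 202 of 238 (84.9%, 79.7 to 89.2%). Of shared intervals among the highest 5000, 4014 lay outside TC-32 acetylation and 748 inside, a share close to this 84.9%.

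The strongest site was at 1q24.2 (chromosome 1, 168543452 to 168543825, hg19), in the band of the chemokine genes XCL1 and XCL2. Its −log10 q was 139 and its fold enrichment 21.0, the 119th rank of the whole list. The nearest TC-71 SMC1 interval was 28.0 kb away and the nearest TC-32 H3K27ac domain 38.6 kb. The next, at 5q23.1 (chromosome 5, 119991555 to 119991894), had the highest fold of the class, 29.0, with a −log10 q of 131. It was also the most isolated of the 20 strongest, with no TC-71 SMC1 interval within 1244 kb and no TC-71 H3K27ac domain within 1203 kb. A TC-32 H3K27ac domain lay 41.03 kb from it.

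The next was at 1q43 (chromosome 1, 240618573 to 240618910), with a −log10 q of 118 and a fold of 14.2, at 432 kb from TC-71 SMC1. After it came 8p23.3 (chromosome 8, 1273376 to 1273744), with 116 and 18.6, at 370.3 kb. Not all strong sites were isolated. At 1q25.2 (chromosome 1, 178969355 to 178969709) the site had a −log10 q of 116 and a fold of 16.4, and a shared SMC1 interval with a −log10 q of 106 lay only 1.93 kb away. Likewise, the site at 17p12 (chromosome 17, 15160641 to 15161108; fold 19.2), the band of the myelin gene PMP22, lay 2.94 kb from a shared interval of fold 9.17. It lay 199 kb from the nearest TC-32 acetylated domain.

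Other sites among the 20 strongest lay on chromosomes 20, 22 and 11. The site at 20q13.32 (chromosome 20, 57427772 to 57428043; fold 20.8) lies in the band of GNAS, an imprinted gene for a G protein subunit. The site at 22q11.21 (chromosome 22, 19744080 to 19744398; fold 22.8) lies in the band of the T-box factor gene TBX1, with the nearest H3K27ac domain at 3.47 kb for TC-32 and at 2.97 kb for TC-71. At 11q23.3 (chromosome 11, 115860601 to 115861095), the band of the adhesion gene CADM1, the fold was 21.9 and the nearest TC-32 domain lay 181 kb away. Whether these sites overlap the genes was not tested here.

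The 20 strongest sites ranked between 119th and 1364th in the list and lay on 11 chromosomes. Their folds ran from 10.1 to 29.0 with a median of 18.3, and their median width was 345 bp. Each was listed with 1 summit, and none (0 of 20) lay in TC-71 acetylation or at BORIS. In 17 of the 20 the −log10 q was higher than that of the nearest shared SMC1 interval. Their choice by −log10 q favoured this count, which is given as a description. In 7 the nearest shared interval was over 100 kb away. Over all 10320 sites only 14.2% (13.6 to 14.9%) outranked the nearest shared interval, and the median ratio of fold, site over nearest shared interval, was 0.617.

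Every chromosome held at least 1 strong site. The highest of each chromosome had a −log10 q between 61.5 and 139 and a fold between 11.8 and 29.0. The lowest of these 23 leading sites were at 9p23 (chromosome 9, 10855912 to 10856236) and 21q21.1 (chromosome 21, 19413392 to 19413662), both with a fold of 18.3. The leading site of chromosome 16, at 16q24.1 (chromosome 16, 86551326 to 86551586; fold 16.2), lies in the band of the forkhead genes FOXF1, FOXC2 and FOXL1. The leading site of the X chromosome was at Xp22.2 (15486136 to 15486408; fold 16.4), 2.79 kb from a shared interval. Of the 23, 3 had a TC-32 H3K27ac domain within 1 kb, at 4q21.21, 7q33 and 15q15.1.

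The long arm of chromosome 1 was prominent at the head of the class. It carried 8 of the 20 strongest sites, 22 of the strongest 100 and 529 of all 10320 (5.13%). The 8 had a median −log10 q of 98.3 and a median fold of 14.0, against 88.7 and 19.1 for the other 12. The same held over the whole class, where 1q sites had a median −log10 q of 13.8 and a median fold of 4.88, against 11.1 and 5.59 elsewhere. Sites on 1q were thus ranked higher by −log10 q and lower by fold.

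This was also seen in sites that both lines listed. Shared unacetylated sites of TC-32 had a median −log10 q of 49.97 and a median fold of 8.25 on 1q, against 31.7 and 8.88 elsewhere. In the TC-71 SMC1 list the medians were 14.3 and 6.25 on 1q, against 13.6 and 6.16 elsewhere. Of all TC-32 SMC1 intervals on 1q, 30.5% (28.4 to 32.8%) were TC-32-only and unacetylated, against 31.6% (31.1 to 32.1%) elsewhere. Within ranks the order turned: in the lowest quartile 36.5% (31.6 to 41.6%) of SMC1 intervals on 1q were of the class, against 44.5% (43.4 to 45.6%) elsewhere. In the second quartile it was 50.5% (45.3 to 55.7%) on 1q, against 46.7% (45.5 to 47.8%) elsewhere. In the third it was 36.5% (31.8 to 41.5%) on 1q, against 27.5% (26.5 to 28.5%) elsewhere. In the highest quartile it was 10.2% (7.85 to 12.9%) on 1q, against 7.04% (6.47 to 7.63%) elsewhere. Copy number and input reads were not analysed here, and their part in these values was not tested.

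**Figure D2:**
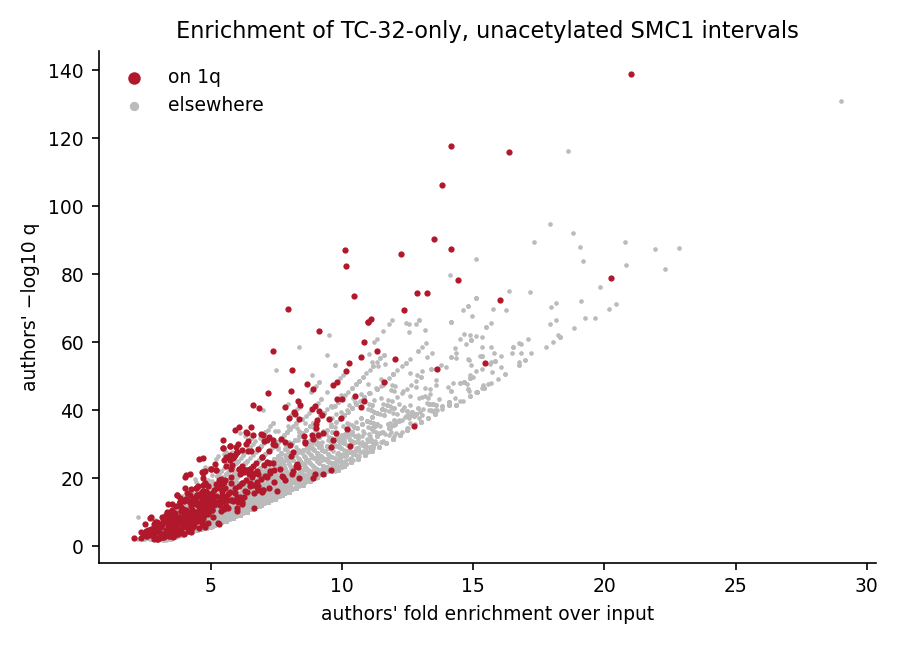
Authors' −log10 q (vertical) against authors' fold enrichment over input (horizontal) for the 10320 TC-32-only unacetylated SMC1 sites, those on 1q in red and those elsewhere in grey. The median −log10 q is 13.8 on 1q against 11.1 elsewhere, and the median fold 4.88 on 1q against 5.59 elsewhere.

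The sites were spread over the genome, at 3.40 per Mb, and 795 of the 808 cytogenetic bands with a TC-32 SMC1 interval held at least 1. Per Mb they were densest on chromosome 17 (4.43), 12 (4.06) and 5 (3.90), and sparsest on chromosomes 22 (2.34), 21 (2.39) and 14 (2.44), over full chromosome lengths. Those 3 chromosomes have short arms with few or no sites, and on their long arms alone the densities were 3.28, 3.24 and 2.92 per Mb. Their share of the local SMC1 list varied more. On the X chromosome 485 of 937 SMC1 intervals (51.8%, 48.5 to 55.004%) were of the class, against 31.5% over the list. Chromosome 5 followed with 38.7% (36.5 to 41.02%) and chromosome 4 with 36.7% (34.5 to 38.9%). The lowest share was on gene-dense chromosome 19, with 21.9% (19.3 to 24.6%).

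**Figure D3:**
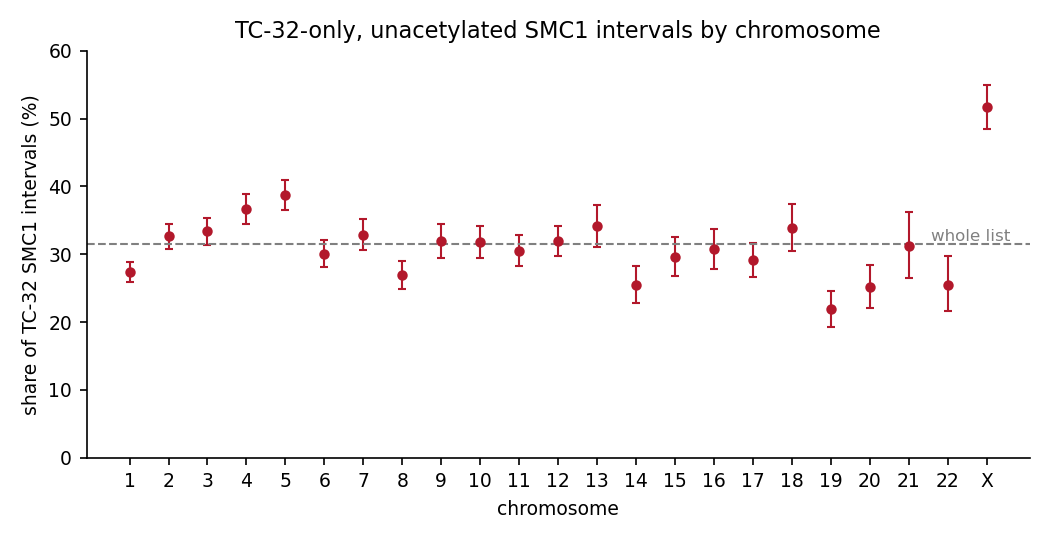
Share of TC-32 SMC1 intervals (%) that were listed in TC-32 alone and not acetylated, by chromosome, with exact 95% intervals as bars. The X chromosome stands at 51.8%, above all autosomes, and chromosome 19 is lowest at 21.9%, with the whole list at 31.5% (dashed line).

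The higher share on the X chromosome was present in every rank quartile. It was a share of the local SMC1 intervals. Per Mb the class was not denser there, at 3.12 sites against 3.40 genome-wide. From the lowest to the highest quartile, 61.9% (55.6 to 67.8%), 62.9% (57.0 to 68.5%), 46.5% (40.2 to 53.0%) and 22.4% (16.02 to 29.8%) of X-linked SMC1 intervals were of the class. On the autosomes the shares were 43.5%, 46.3%, 27.4% and 6.98%. The X chromosome also differed most between the lists as a whole, with 937 SMC1 intervals in TC-32 and 359 in TC-71, a ratio of 2.61 against 1.79 genome-wide. For H3K27ac the ratio of domains on the X chromosome was 1.47, against 1.38 genome-wide. The gap between the lines was thus wider for cohesin than for acetylation there, as it was genome-wide. By arm the acetylation ratio was 1.68 on Xp and 1.27 on Xq, and the SMC1 ratio 3.05 and 2.29. Copy number of the X chromosome was not analysed here.

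Among the autosomal arms with 100 or more intervals, 17p had the highest share. On 17p, 132 of 298 SMC1 intervals (44.3%, 38.6 to 50.1%) were of the class, at 5.50 per Mb, and TC-71 listed 126 SMC1 intervals. The long arm, 17q, had 228 of 939 (24.3%, 21.6 to 27.2%). The 5 bands of 17p had shares between 41.2% at 17p13.3 (27.6 to 55.8%) and 54.5% at 17p12 (36.4 to 71.9%), and the interval at 17p13.3 includes the 31.5% of the whole list. Arms that followed were 5q with 39.0%, 3p with 38.7% and 5p with 37.7%. Copy number of these arms was not analysed here.

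Giemsa-dark bands, which are AT-rich and gene-poor, were richer in the class than pale ones. In the darkest bands 1646 of 3999 SMC1 intervals (41.2%, 39.6 to 42.7%) were TC-32-only and unacetylated, against 4900 of 16868 (29.05%, 28.4 to 29.7%) in unstained bands. The intermediate stains had 28.1%, 31.9% and 34.3%, from light to dark. On the autosomes alone the darkest bands had 40.6% and unstained bands 28.3%. Per Mb the class was not denser in dark bands, at 3.30 sites against 3.80 in unstained ones. Shared unacetylated sites fell off there, to 2.38 per Mb in the darkest bands against 5.93 in unstained ones. The sites were therefore spread more evenly over pale and dark chromatin than shared ones were.

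This difference between stains held within ranks. In the highest quartile 14.9% of SMC1 intervals in the darkest bands were of the class, against 5.90% in unstained bands, and in the third quartile 38.3% against 25.6%. In the lower quartiles the shares were 52.3% and 44.7% in the second, and 49.4% and 42.7% in the lowest.

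Single bands departed further. Of the 493 bands with at least 30 TC-32 SMC1 intervals, 28 had more than 50% of them in the class, 8 of these on the X chromosome, and 25 had under 15%. The median band had 30%. At 5q23.1, 37 of 42 intervals (88.1%, 74.4 to 96.02%) were TC-32-only and unacetylated, and TC-71 listed 3 SMC1 intervals in that band. Neighbouring 5q23.2 had 50 of 73 (68.5%), with 9 in TC-71. H3K27ac domains followed the same order, with 35 for TC-32 against 7 for TC-71 at 5q23.1, and 55 for TC-32 against 18 for TC-71 at 5q23.2.

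Other bands with a high share were Xq22.3 with 22 of 31 and 3p14.2 with 32 of 46 (69.6%). The band 3p14.2 holds the large fragile-site gene FHIT. TC-71 listed 7 SMC1 intervals there, and H3K27ac domains numbered 28 in TC-32 and 12 in TC-71. At 1q31.1, the band of the prostaglandin synthase gene PTGS2, 45 of 67 (67.2%) were of the class, and at Xq24 31 of 47 (66.0%). By number the leading bands were 7q21.11, which holds several semaphorin genes and HGF, with 54 of 111, and 1q41 with 53 of 131. The bands with most sites were thus large and not all high in share, as 1q32.1 had 49 of 200 (24.5%).

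The 3 bands with the lowest share were 6p22.2, 12q13.13 and 8q24.21. At 6p22.2, the band of the main cluster of replication-dependent histone genes, 3 of 40 SMC1 intervals (7.50%, 1.57 to 20.4%) were of the class. At 12q13.13, the band of the HOXC homeobox genes, the count was 8 of 89 (8.99%, 3.96 to 16.9%), with 80 SMC1 intervals in TC-71. At 8q24.21, the band of MYC, it was 7 of 72 (9.72%), and TC-71 listed more H3K27ac domains there than TC-32 (87 for TC-32 against 134 for TC-71). The bands differed in their other TC-32 intervals. TC-32-only sites inside TC-32 acetylation numbered 18 at 6p22.2 and 32 at 8q24.21, against 8 at 12q13.13. Shared intervals numbered 19 at 6p22.2, 33 at 8q24.21 and 73 at 12q13.13.

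**Figure D4:**
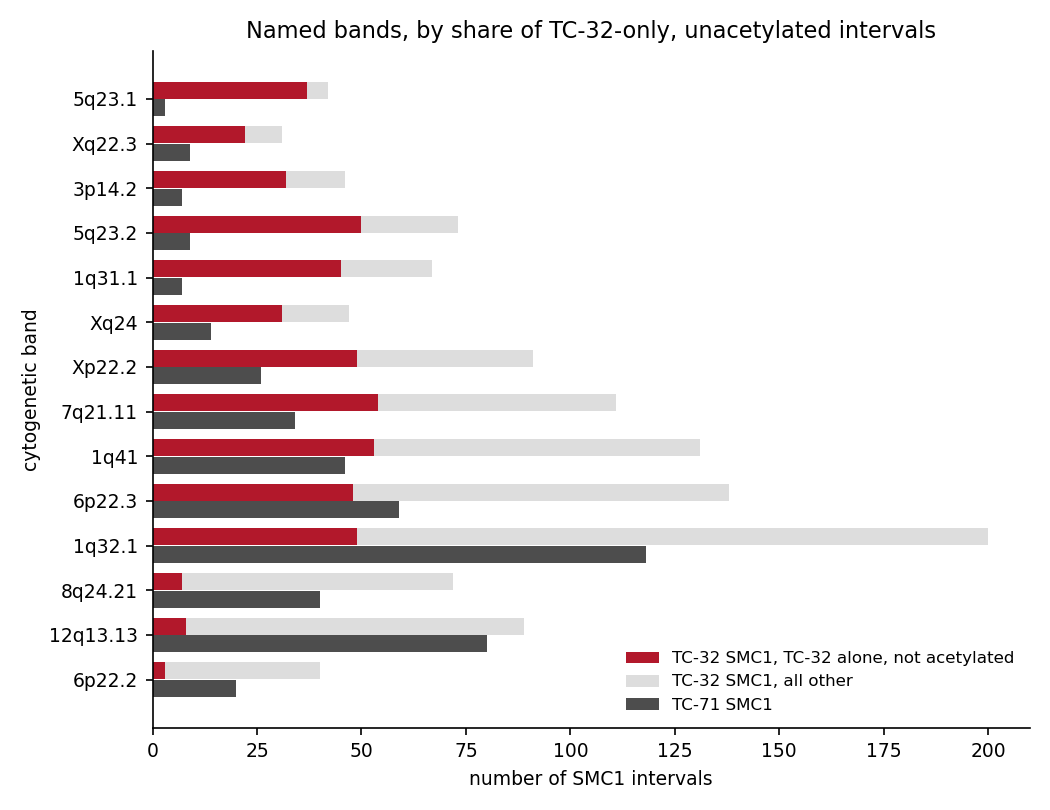
Number of SMC1 intervals in the named cytogenetic bands, with TC-32-only unacetylated sites in red, the other TC-32 intervals in light grey and TC-71 intervals in dark grey. At 5q23.1 the class makes up 37 of 42 TC-32 intervals and TC-71 lists 3, whereas at 12q13.13 it makes up 8 of 89 and TC-71 lists 80.

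Along the chromosomes, sites of the class often followed one another, as did sites of other classes. After a site of the class, the next SMC1 interval of TC-32 was of the class in 39.2% of cases, against 30.7% after a shared unacetylated site and 31.6% over the list. After a TC-32-only acetylated site the next was of that kind in 38.2% of cases, against 18.2% over the list, and after a shared unacetylated site the next was shared in 57.5%, against 50.3%. In all, the sites formed 6278 uninterrupted runs, of which 4060 were single sites. Runs of 5 or more numbered 221 and held 1368 sites, and 14 runs held 10 or more. With lists of equal length 41 runs of 5 or more were left, and where only intervals covered by at least 50% counted as shared or acetylated there were 346.

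The longest run had 18 sites over 2.64 Mb at 5q23.1 to 5q23.2 (chromosome 5, 118771251 to 121412108), with a median −log10 q of 15.03 and 4 sites in the highest rank quartile. TC-32 listed 13 H3K27ac domains within it, TC-71 listed 2, and TC-71 listed no SMC1 interval over 3.10 Mb around it. It includes the site with the highest fold of the class, described above. A run of 10 lay at lower coordinates in 5q23.1 (116073893 to 118128065), with 3 H3K27ac domains in TC-32 and none (0) in TC-71.

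The next longest was a run of 15 at Xp22.31 (chromosome X, 6281307 to 8939504), the band of the steroid sulfatase gene STS. It held 8 H3K27ac domains in TC-32 and 5 in TC-71. A run of 14 at 3p12.3 to 3p12.2 (chromosome 3, 79297019 to 80726285), the region of the axon guidance receptor gene ROBO1, held 6 domains in TC-32 and none (0) in TC-71. The run of 13 at Xq21.1 to Xq21.31 (84339872 to 91487535) spanned 7.15 Mb and contained 10 domains in TC-32 and 13 in TC-71. Long runs thus differed in acetylation, with TC-71 domains in some and none in others.

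Further runs of 10 or more lay on other chromosomes. A run of 11 sites at 11q25 (chromosome 11, 131845474 to 132429454), the band of the cell adhesion genes NTM and OPCML, was the most compact at 0.584 Mb, with 3 sites in the highest rank quartile. A run of 11 at 13q21.32 (chromosome 13, 66370382 to 67568645), the band of the protocadherin gene PCDH9, had 5 H3K27ac domains in TC-32 and none (0) in TC-71. The run of 10 at Xp21.2 to Xp21.1 (30989967 to 33355219), the bands of the dystrophin gene DMD, had 3 in TC-32 and none (0) in TC-71. A run of 10 at 4p12 (chromosome 4, 44634233 to 46650476), the band of a cluster of GABA receptor genes, had 10 in TC-32 and 2 in TC-71. The other runs of 10 or more lay at 7p12.3 to 7p12.2, 2q34 to 2q35, 8p22, Xq26.2 to Xq26.3 and 3p14.1, with 6, 12, 5, 16 and 5 domains in TC-32, whereas TC-71 had 0, 3, 1, 10 and 0. Of the runs of 10 or more, only those at Xq21.1 to Xq21.31 and at 2q34 to 2q35 contained a TC-71 SMC1 interval, 1 each. Copy number in these stretches was not analysed here.

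Long stretches without a TC-71 SMC1 interval, which the choice of sites used, were as a whole not dense in the class per Mb. A TC-32 SMC1 interval inside such a stretch is TC-32-only by that choice, so no share of the local list is given. Gaps of over 0.5 Mb between neighbouring TC-71 intervals numbered 1021 and took up 36.2% of the chromosome length. They held 3017 sites, 29.2% of the class, at 2.74 per Mb against 3.40 genome-wide. These lengths include centromeric and Giemsa-variable bands, which held 0.456 and 0.255 sites per Mb, and densities without them were not computed. The 3 gaps with most sites held 24 each. They lay at 5q23.1 to 5q23.2 (chromosome 5, 118748009 to 121851968), at 5q23.2 (123006952 to 125874928) and at 3p14.2 (chromosome 3, 61516297 to 63336995). In these gaps TC-32 listed 18, 28 and 19 H3K27ac domains, whereas TC-71 listed 2, 2 and 8. A gap at 1q31.2 to 1q31.3 (chromosome 1, 193376204 to 196287134) held 21.

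Most sites of the class lay at some distance from a shared cohesin site. The median distance to the nearest shared SMC1 interval was 54.2 kb (52.0 to 56.3 kb), with a 10th to 90th percentile of 4.52 to 320.2 kb. For comparison, TC-32-only acetylated sites lay a median of 46.0 kb (43.8 to 47.9 kb) from a shared interval, and shared unacetylated sites 40.3 kb (39.2 to 41.6 kb) from the nearest other one. Within 10 kb of a shared interval lay 1893 sites of the class (18.3%), against 20.5% of shared unacetylated sites. Over 100 kb away were 34.2% of the class, against 24.3% of shared unacetylated sites.

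The same order appeared within ranks and was widest among strong sites. In the highest quartile the median distance was 61.9 kb for the class and 37.7 kb for shared unacetylated sites. In the third, second and lowest quartiles it was 52.5, 49.7 and 58.9 kb for the class, and 41.2, 45.2 and 42.8 kb for shared unacetylated sites. Strong sites of the class thus lay no closer to shared cohesin than weak ones.

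**Figure D5:**
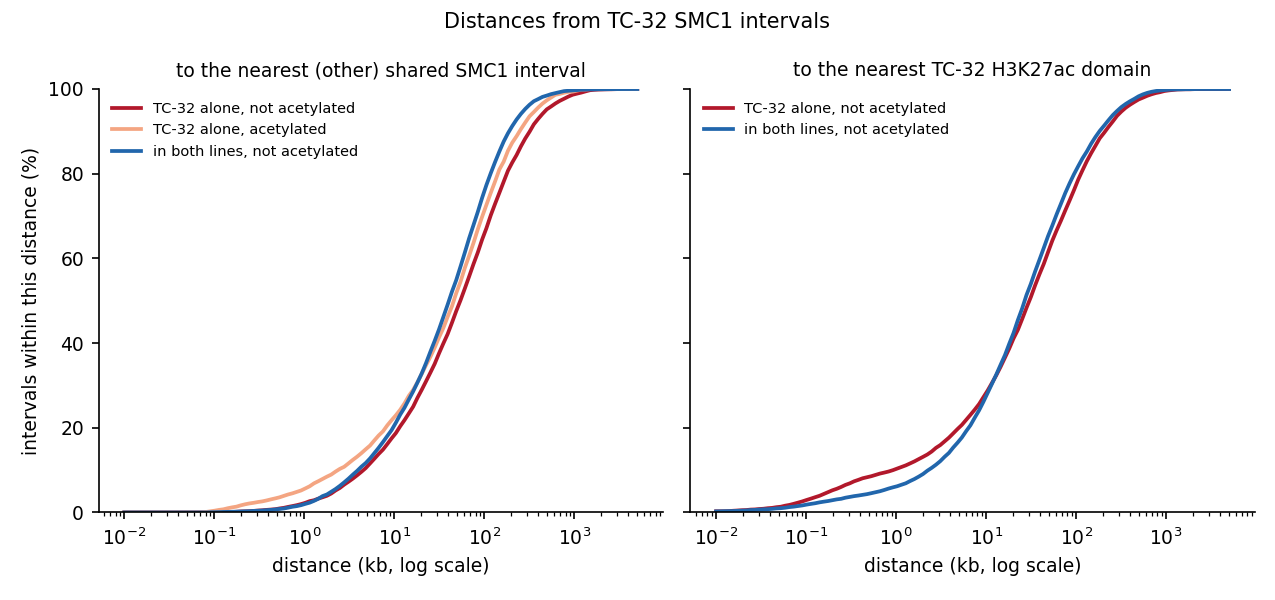
Cumulative share of TC-32 SMC1 sites (%) by distance in kb on a log scale, to the nearest other shared SMC1 interval (left) and to the nearest TC-32 H3K27ac domain (right). TC-32-only unacetylated sites (red) lie farther from shared sites, with medians of 54.2 kb against 40.3 kb for shared unacetylated sites (blue), and exceed them within 1 kb of a domain, at 10.2% against 6.12%.

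Between neighbouring shared intervals, 5640 of 16437 gaps (34.3%) held at least 1 site of the class. The share of gaps with a site rose with their length, as 13.7% of gaps of over 10 to 50 kb, 50.3% of those of over 100 to 500 kb and 86.0% of the 1105 gaps over 500 kb held 1. Per Mb of gap the sites thinned out, from 5.54 in gaps of over 10 to 50 kb to 3.77 in gaps of over 100 to 500 kb and 2.77 in gaps over 500 kb. Gap lengths here also include the sparse centromeric bands. Most occupied gaps, 3397, held a single site, and 310 held 5 or more.

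The 5 most remote sites lay on the X chromosome, at 16p11.1 or at 9q12. The farthest, at Xq21.31 (89126731 to 89126935; fold 6.93), was 3551 kb from a shared interval. Next were 16p11.1 (chromosome 16, 34625858 to 34626049, fold 8.51) at 3171 kb and 9q12 (chromosome 9, 65613977 to 65614153, fold 9.04) at 3112 kb. A TC-71 SMC1 interval that TC-32 lacked lay 40.5 kb from the site at 16p11.1. The 3 sites ranked in the middle of the list, with −log10 q values of 19.8, 18.1 and 20.3. In all 131 sites lay over 1000 kb from a shared interval.

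The conditions that define the class were sharp for TC-71 cohesin and less so for acetylation. Only 1 site had a TC-71 SMC1 interval within 100 bp, at 11q23.3 (chromosome 11, 118560550 to 118560778), 74 bp away, and 228 (2.21%) had one within 1 kb. Just outside the class, 1 unacetylated interval overlapped TC-71 SMC1 by under 20 bp, at 5p14.2 (chromosome 5, 24445468 to 24445765), by 19 bp. For acetylation, 302 sites had a TC-32 domain within 100 bp and 1056 (10.2%) within 1 kb, against 6.12% of shared unacetylated sites. The site at 3q21.3 (chromosome 3, 127794508 to 127794705) touched a domain without sharing a base, while intervals at 10q25.3, 17q21.31 and 12q21.33 were left out for 1 shared bp. The weakest site of the class, at 4q28.1 (chromosome 4, 126517439 to 126517607), had a −log10 q of 2.01, the lowest in the list.

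At larger distances the order was the reverse. The median distance to the nearest TC-32 H3K27ac domain was 30.2 kb (29.0 to 31.6 kb) for the class and 26.8 kb (26.0 to 27.6 kb) for shared unacetylated sites. This order did not hold in the lowest rank quartile, with 26.9 kb for the class and 30.7 kb for shared unacetylated sites. The other quartiles kept it, with 32.3 and 26.4 kb in the highest. With a −log10 q of at least 5 in every list the distance for the class was 48.4 kb. To the nearest TC-71 domain, which the choice of sites did not use, it was 61.02 kb (58.3 to 65.0 kb) for the class and 35.9 kb (34.8 to 37.2 kb) for shared unacetylated sites. Over 100 kb from a TC-71 domain lay 40.05% of the class and 26.5% of shared unacetylated sites. The neighbourhood of the class was thus poorer in TC-71 acetylation by a wider margin than in TC-32 acetylation. The classes differ in TC-71 SMC1 by choice, and the part of that choice in this margin was not tested.

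Acetylation of the sites themselves in TC-71 was rare. A TC-71 H3K27ac domain overlapped 289 of the 10320 sites (2.80%, 2.49 to 3.14%), against 577 of the 13928 shared unacetylated sites (4.14%, 3.82 to 4.49%) and 17.9% of all TC-32 SMC1 intervals. Neither class has TC-32 acetylation by its choice. Shared sites were chosen for a TC-71 SMC1 interval and the class for lacking one. The part of this choice in the TC-71 shares was not tested. Among TC-32-only sites that were acetylated in TC-32, 54.2% (52.9 to 55.4%) were acetylated in TC-71 too. By rank, the shares were 3.24%, 2.77%, 2.44% and 1.69% of the class from the lowest to the highest quartile, against 6.46%, 4.21%, 4.48% and 3.61% of shared unacetylated sites. The 95% intervals of the classes did not overlap in any quartile. They came closest in the highest, at 0.812 to 3.08% for the class (10 of 593 sites) and 3.16 to 4.10% for shared unacetylated sites. These intervals take sites as independent, whereas sites of the class often followed one another along the chromosomes.

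Part of this overlap came from sites beside a TC-32 domain. Of the 289, 115 (39.8%) lay within 1 kb of a TC-32 domain, and 114 (39.4%) lay over 10 kb from any. Of all sites over 10 kb from a TC-32 domain, 114 of 7407 (1.54%, 1.27 to 1.85%) were acetylated in TC-71, against 294 of 10105 shared unacetylated sites (2.91%, 2.59 to 3.26%). The lower share in the class thus held away from TC-32 domains. When a site was kept only with neither TC-71 SMC1 nor TC-32 H3K27ac within 1 kb, 1.78% of the class overlapped TC-71 acetylation.

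The strongest site with TC-71 acetylation was at 7p21.1 (chromosome 7, 18610541 to 18610973), in the band of TWIST1 and HDAC9, with a fold of 19.6 and the nearest TC-32 domain 17.7 kb away. It was followed by 6q14.1 (chromosome 6, 81315164 to 81315543; fold 16.1) and 1q31.1 (chromosome 1, 190723611 to 190724226; fold 15.5). The last lay 176 kb from a TC-32 domain and 1253 kb from any TC-71 SMC1 interval. At these places cohesin was listed in TC-32 and acetylation in TC-71.

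BORIS (CTCFL), the germ-line paralog of CTCF, was seldom found at the class. Its lists were short, with 534 intervals in TC-71 and 6 in TC-32, which caps the overlap of any class. A TC-71 BORIS interval overlapped 17 of the 10320 sites (0.165%, 0.0960 to 0.264%), against 133 of the 13928 shared unacetylated sites (0.955%, 0.800 to 1.13%) and 1.20% of all TC-32 SMC1 intervals. Of TC-32-only sites inside TC-32 acetylation it overlapped 63 of 5940 (1.06%, 0.816 to 1.35%), and of shared acetylated sites 181 of 2532 (7.15%). The order of the class and shared unacetylated sites was the same in each rank quartile. From the lowest to the highest, 4 of 3608, 7 of 3827, 5 of 2292 and 1 of 593 sites of the class were at BORIS. Of shared unacetylated sites, 9 of 728, 17 of 2326, 46 of 4553 and 61 of 6321 were at BORIS. The 95% intervals, which again take sites as independent, did not overlap in the 3 lower quartiles. They overlapped in the highest, at 0.00427 to 0.936% for the class and 0.739 to 1.24% for shared unacetylated sites. As for acetylation, the part of the choice by TC-71 SMC1 in this order was not tested.

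At these 17 places TC-71 listed BORIS without an SMC1 interval, the nearest being 1.47 kb away at the least and 16.1 kb in the median. The strongest was at 3q13.31 (chromosome 3, 113874256 to 113874574), with a fold of 15.1, a −log10 q of 73.1 and TC-71 cohesin 2.71 kb away. The site at 12q13.3 (chromosome 12, 57400353 to 57400556; fold 9.79) was the only one of the 17 in a TC-71 H3K27ac domain, and it lay 45 bp from a TC-32 domain. Within 1 kb of a TC-32 domain were 5 of the 17. TC-32 listed BORIS at 5 of its SMC1 intervals (0.0153%), from a list of 6 BORIS intervals in all. Of these SMC1 intervals 1 was of the class, at 17p11.2 (chromosome 17, 18966821 to 18967263, fold 9.13), 47.3 kb from acetylation. Sites of the class with BORIS from either line numbered 18, against 30 where sharing needed at least 50% cover and 11 with lists of equal length.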

How the data were processed

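Values are those of the deposited peak lists on build hg19; the submitters' processing notes name that build, MACS2 2.1.1, deepTools 2.2.4, Picard, STAR 2.5.1b and SAMtools 1.3.1, without roles or settings. How replicates were combined is not given in the sources used here. For each peak the authors deposited a score, a fold enrichment ratio, a −log10 p, a −log10 q and, for narrow peaks, a summit offset. Fold and −log10 q are the authors' own values per peak, and they served for ranking, filtering and description inside each list. Depth per sample is unknown.

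The 34320 listed TC-32 SMC1 summits were reduced to 32720 distinct intervals, each with the values of its highest summit. Overlap meant at least 1 bp, distances run edge to edge, and coordinates count from 1. Shares carry exact Clopper-Pearson and medians order-statistic 95% intervals. Each interval was placed in a cytogenetic band of the hg19 table of circlize 0.4.16; GenomeInfoDb 1.38.1 gave the chromosome lengths. The gene and promoter tables at hand are of GRCh38, so none was used. The overlap code was checked on simulated lists with 0 wrong calls in 600 intervals.

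Members and naming rules were chosen with earlier results of these data known. Named were the 20 highest members, the highest of each chromosome, bands with most members or extreme shares (at least 30 intervals), the longest runs, and members nearest the edges of the rule or with other marks. The arm 17p was named after its values were seen. The work used scipy 1.17.1, pandas 2.3.3 and numpy 2.4.6 under Python 3.11.15, with figures from matplotlib 3.10.9.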

Additional observations from a re-analysis of the deposited data

How the results depend on the processing

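No paired analysis was possible because both replicates of a line and antibody share 1 list, which also means that no replicate could be left out. Alternatives gave 41 values: 28 moved beyond the 95% interval of the share or median, or by over 1.5 times for a count, and 13 did not. In each of the 5 other settings the X chromosome had the highest share. The share of the class in the list, its median rank percentile and the share in TC-71 H3K27ac were 34.7%, 32.3 and 1.91% with a −log10 q of at least 5 in every list. They were 27.7%, 35.8 and 1.78% with neither TC-71 SMC1 nor TC-32 H3K27ac within 1 kb, and 36.4%, 38.5 and 3.92% where only intervals covered by at least 50% counted as shared or acetylated. With that −log10 q in the TC-32 SMC1 list alone the first 2 were 30.6% and 31.9, and with lists of equal length 20.8% and 26.5. Medians to shared SMC1 and to TC-32 H3K27ac were 57.7 and 48.4 kb with the −log10 q in every list, 65.8 and 28.0 kb with 50% covered, and 63.6 and 41.9 kb with equal lengths. Within the 1 kb rule the distance to H3K27ac was 37.4 kb, by construction. The X share was 56.3% with the −log10 q in every list, 46.6% with 1 kb, 57.0% with 50% covered and 40.8% with equal lengths. Runs of 5 or more numbered 346 with 50% covered and 41 with equal lengths, and sites with BORIS from either line 30 and 11, against 221 and 18 as reported. Cutting the TC-32 list to its 18264 intervals of highest −log10 p removed those under a −log10 q of about 14.7, so 3799 sites were left. The check without the X chromosome was chosen after seeing the data and gave 40.6% in the darkest bands.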
